A study of Mus musculus with 193 samples.

Results

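Of 193 single mouse testis cells in the series, 71 came from wild-type (WT) males at postnatal day 3 (P3), and the members of both sides were selected on their own measured Rhox10 value in RPM, the reads on a gene scaled to the total of the cell. The 45 cells with Rhox10 above 1 RPM are called Rhox10-detected, and the 26 cells with Rhox10 at 1 RPM or less are called Rhox10-undetected. All of these cells carried the Id4-eGFP reporter, came from enzymatically dispersed testes and were collected by fluorescence-activated sorting for GFP, with a gate that is not given in the sources used here. Both sides share genotype, age, reporter and sort, and were divided by the Rhox10 value; they also differed in read depth, as given below. The study also profiled WT cells from postnatal day 7 (P7; 26 Rhox10-detected and 27 undetected cells) and P3 cells whose label gives a Rhox10 knockout (KO; 34 and 35 cells), which serve here only to show the same division in other cells. Each cell was lysed with ERCC spike-in RNA on a Fluidigm C1 chip, its cDNA was amplified with SMARTer chemistry, and a Nextera XT library was made from it.

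The Rhox cluster is a group of reproductive homeobox genes on the X chromosome, and its member Rhox10 is known in the mouse to promote the step from prospermatogonia to spermatogonial stem cells. Id4 encodes an inhibitor of DNA binding, and its reporter marks the spermatogonia with most stem cell activity. Stem cell spermatogonia respond to GDNF from Sertoli cells, and T, Bcl6b, Etv5 and Lhx1 are among the genes known to depend on that signal.

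The promoters of Rhox10, the gene that divided the cells, and of T, a stem cell gene whose level differed between the sides in both sets of cells, are shown as the 250 bases before the annotated start, from RefSeq on GRCm38.p6, with CG pairs in capitals. Rhox10 lies on the plus strand, with this window at chrX:38066225-38066474, and T lies on the plus strand, with its window at chr17:8434173-8434422.
Rhox10: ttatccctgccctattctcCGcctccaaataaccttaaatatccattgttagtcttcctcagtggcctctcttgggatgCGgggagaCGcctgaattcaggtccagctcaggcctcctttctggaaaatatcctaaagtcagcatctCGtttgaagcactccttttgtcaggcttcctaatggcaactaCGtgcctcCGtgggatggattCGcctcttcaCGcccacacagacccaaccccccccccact
T: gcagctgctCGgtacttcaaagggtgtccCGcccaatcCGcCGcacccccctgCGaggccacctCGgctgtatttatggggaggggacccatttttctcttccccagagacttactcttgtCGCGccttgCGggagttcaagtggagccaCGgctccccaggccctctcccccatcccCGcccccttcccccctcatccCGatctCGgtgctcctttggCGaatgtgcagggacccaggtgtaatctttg
The Rhox10 window holds 8 CG pairs and the T window 14, against a median of 6 over 32851 promoter windows of the same length, of which 92.1% hold at least 1 CG pair. The letters TAATTA, the core that many homeodomain proteins bind and a palindrome that reads the same on both strands, occur in neither window and in 4.84% of all windows.

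The Rhox10 values that made the division are given as a description. Rhox10-detected cells ranged from 1.10 to 17.3 RPM with a median of 4.56, which stood for 2 to 78 reads per cell. Rhox10-undetected cells ranged from 0 to 0.966 RPM with a median of 0, which stood for 0 to 10 reads. Of the 26 undetected cells, 18 had no Rhox10 read and 8 had at least 1, so undetected is not the same as absent. The cells just above the limit stood at 1.10, 1.17, 1.19 and 1.31 RPM, and those just below it at 0.966, 0.79 and 0.713 RPM. With an exact 95% Poisson interval on its reads, which covers counting error only, the side was uncertain for 9 of 45 detected and 13 of 26 undetected cells, and 49 of 71 cells were clear of the limit. In 5 of the 18 cells without a read, 3 reads would have stood for more than 1 RPM. The share of cells on the detected side was 62.5% in set A (35.4 to 84.8%, exact 95% binomial interval) and 63.6% in set B (49.6 to 76.2%). These intervals, and those on shares of cells below, cover the counting of cells alone and not the spread between animals, and are no comparison of the sides. The sets are lettered in the sample titles without an explanation. It was 49.1% (35.1 to 63.2%) in WT P7 cells and 49.3% (37.0 to 61.6%) in P3 cells labelled KO, in which the part of Rhox10 removed is not given in the sources used here.

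**Figure D1:**
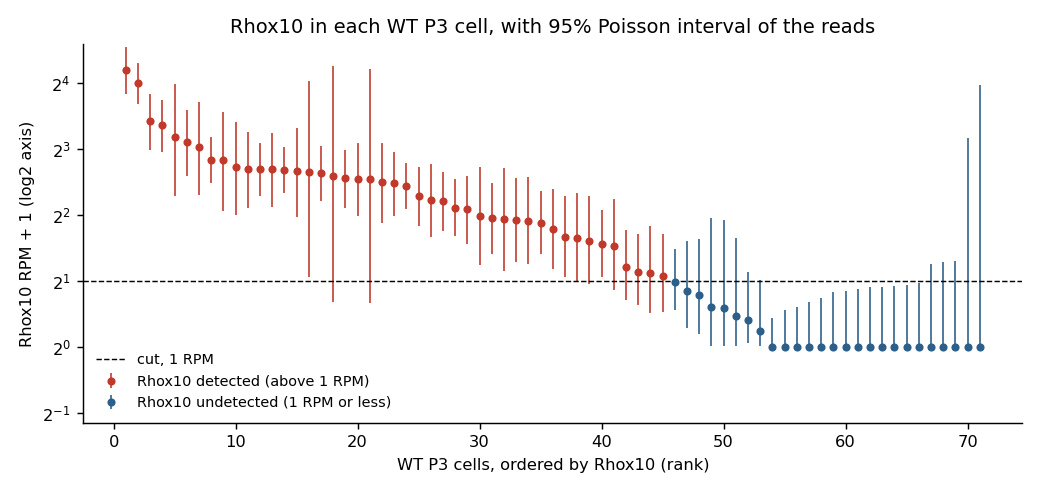
Rhox10 in each of the 71 WT P3 cells, ordered by value (x axis, rank; y axis, RPM + 1 on a log2 axis), with the exact 95% Poisson interval of its reads as a bar and the limit of 1 RPM as a dashed line. The bars of 9 detected and 13 undetected cells reach across the line.

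Rhox10-detected cells were read more deeply on genes. The median total was 4773785 reads in detected cells (400702 to 10663507) and 4224995 in undetected cells (251530 to 10378902), a ratio of 1.13. The reads that fell on genes had medians of 578866 and 401612.5 in detected and undetected cells, a ratio of 1.44. Detected cells had a median of 7253 genes above 1 RPM (5520 to 8062) and undetected cells 6918 (5093 to 7883). The number of genes was above the median of all 71 cells in 26 of 45 detected cells and in 9 of 26 undetected cells. ERCC reads made up a median of 0.823% of the total in detected cells and 0.885% in undetected cells.

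The depth gap stood mostly in set A. There, 10 detected cells had a median of 7707 genes above 1 RPM and 6 undetected cells 6262.5, with 667011 and 363388.5 reads on genes. In set B, 35 detected and 20 undetected cells had medians of 7083 and 7015 genes, with 537184 and 439847.5 reads on genes. When every cell was thinned to 200000 reads on genes, which left out 5 detected and 3 undetected cells, the median of genes with a read was 8436 in detected and 8072 in undetected cells, against 9236.5 and 9039 in the same cells unthinned. Thinned medians were 8533.5 and 7944 in set A, and 8428 and 8272.5 in set B. The gene differences that follow were also recomputed after a rescaling to the reads on genes and after this thinning. The median difference of all examined genes was 0.24 as deposited, 0.07 rescaled and 0.05 thinned. After thinning, the 12 highest genes named below had a median difference of 1.28, against 1.49 before. The 12 lowest had -1.25, against -1.13 before. How much of the gene differences came from depth was not tested.

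**Figure D2:**
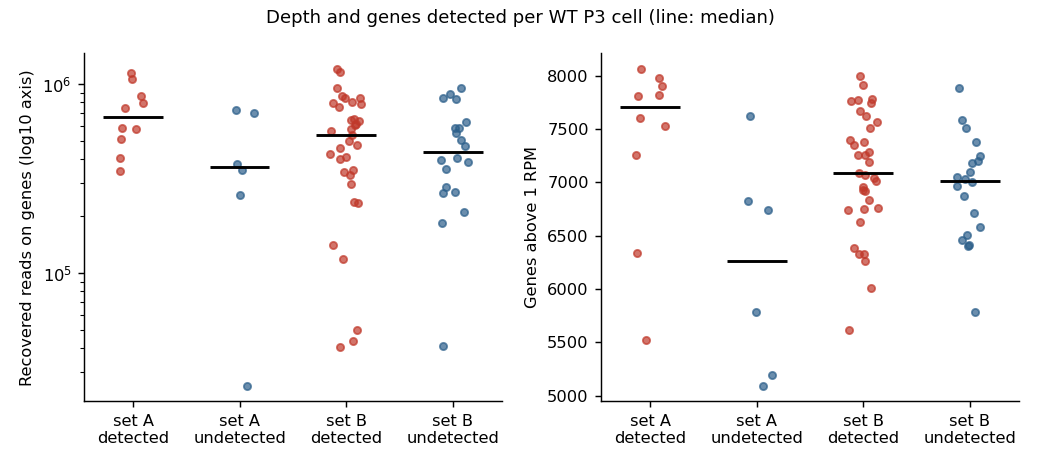
Recovered reads on genes (left, log10 axis) and number of genes above 1 RPM (right) for each WT P3 cell, by lettered set, with Rhox10-detected cells left of undetected cells and the median as a line. In set A the detected cells had a median of 7707 genes and the undetected cells 6262.5, and in set B 7083 and 7015.

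Both sides were germ cells by their markers. Ddx4, an RNA helicase of germ cells, and Dazl, an RNA-binding protein of germ cells, were above 1 RPM in 45 of 45 detected and 26 of 26 undetected cells, and all 5 germ cell markers in 45 and 24 cells. At least 1 of 7 Sertoli markers was above 1 RPM in 21 of 45 detected and 16 of 26 undetected cells, with a summed level of 0 to 588 RPM (median 0.865) and 0 to 191 RPM (median 2.74). The Sertoli marker Cldn11 was at 0 in every undetected cell, and Clu was above 1 RPM in 15 detected and 14 undetected cells. At least 1 of 3 Leydig markers was above 1 RPM in 9 detected and 9 undetected cells, with Cyp11a1 at 0 in all of them, and at least 1 of 5 myoid markers in 22 and 11 cells. For 3 leukocyte markers the counts were 15 detected and 5 undetected cells, with Ptprc, the pan-leukocyte gene CD45, at 0 in every cell. For 3 endothelial markers they were 27 detected and 7 undetected cells. Pecam1, an adhesion molecule of endothelium, was above 1 RPM in 19 detected cells (42.2%; exact 95% interval 27.7 to 57.8%, counting error only) and 2 undetected cells (7.69%; 0.946 to 25.1%), while all 3 endothelial markers stood above 1 RPM together in 1 detected and 0 undetected cells. Of 8 genes on a wider endothelial list, 4 had a mean log2(RPM + 1) of at least 0.5. Their differences in mean log2(RPM + 1), detected minus undetected, were 0.86 for Pecam1, 0.33 for Kdr, 0.03 for Flt1 and -0.37 for Vwf. Pecam1 was higher and Vwf lower in both sets. The part of RNA from other cell types in the gene differences was not tested.

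For every other gene, the mean of log2(RPM + 1) was taken in each lettered set and side, and the difference, detected minus undetected, was averaged over sets A and B with equal weight. The labels name no animal, so each side counts as 1 sample and no test was made. Mean levels below are likewise averaged over the sets with equal weight. Standard deviations beside them are between all cells of a side, pooled over sets, and so are not centred on those means. Agreement of sets A and B is the only measure of repeat. Across the 4728 genes whose mean level was 2 or more, the median difference was 0.24 (0.38 in set A and 0.11 in set B), 73.2% of genes were higher in detected cells, and 47% were higher and 11% lower there in both sets. After the values were rescaled to reads on genes, the median was 0.07. Differences in set A, with 6 undetected cells, spread with a standard deviation of 0.75, against 0.31 in set B. They passed 1 in either direction for 22.4% of genes in set A and 0.571% in set B.

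A gene was counted as differing when its averaged difference passed 1 and had the same sign in both sets. By that rule 144 genes (3.05% of those examined) were higher in Rhox10-detected cells and 12 (0.254%) were lower. Against each set's own median the counts were 39 higher and 37 lower, and after rescaling to reads on genes they were 70 higher and 22 lower. Without set A, on set B alone, 16 genes were higher, and without set B, on set A alone, 861 genes were higher and 176 lower. Leaving out single undetected cells of set A moved these counts most. Without cell 2 there were 229 higher genes, without cell 10 there were 19 lower genes, and without cell 15 there were 22 lower and 118 higher genes.

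The 12 highest genes spanned differences of 1.42 to 1.86, and in every one the difference was larger in set A than in set B. Fam169a (chr13:97067286-97131013, plus strand) was the highest. In set A it ranged from 3.39 to 66.6 RPM with a median of 34.7 in detected cells, and from 0 to 10.0 RPM with a median of 4.52 in undetected cells. In set B it had a median of 22.5 RPM in detected cells (5.48 to 73.6) and 19.1 RPM in undetected cells (2.17 to 38.015). The sides overlapped in both sets. Its mean level on the log2(RPM + 1) scale was 4.75 ± 0.90 in detected and 2.89 ± 1.57 in undetected cells (SD between pooled cells). The mean over the pooled undetected cells was 3.44. The difference of the set-averaged means was 1.86 (2.99 in set A and 0.72 in set B).

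Rnf139 (chr15:58889229-58907057, plus strand), a ubiquitin ligase of the endoplasmic reticulum, had the difference of nearest size in the 2 sets among the 12 highest, 1.94 in set A and 1.00 in set B. Its set A values were 4.92 to 54.6 RPM (median 21.1) in detected and 0 to 14.015 RPM (median 6.53) in undetected cells. Its set B values were 0 to 77.7 RPM (median 8.74) in detected and 0 to 23.5 RPM (median 5.997) in undetected cells. It was above 1 RPM in 43 of 45 detected and 18 of 26 undetected cells, and the ranges overlapped in each set. Tmx4, a thioredoxin-related membrane protein, and Sp4, a transcription factor of the Sp family, also differed in both sets, by 2.06 and 0.87 for Tmx4 and by 2.21 and 0.85 for Sp4.

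Another 7 of the 12 had set B differences of 0.14 to 0.65, beside a set B median of 0.11 over all examined genes. Pja2, a ubiquitin ligase, differed by 1.77 (2.90 and 0.65), Stx12, an endosomal syntaxin, by 1.51 (2.60 and 0.42), and Ccdc53, a subunit of the endosomal WASH complex now named Washc3, by 1.44 (2.34 and 0.53). Rragd, a Rag GTPase of amino acid sensing, differed by 1.49, with 2.84 in set A and 0.14 in set B. Tmem55a, a phosphoinositide phosphatase now named Pip4p2, Plekha1, an adaptor that binds phosphoinositides, and Akr1b8, an aldo-keto reductase, had set B differences of 0.22, 0.25 and 0.32 beside set A differences of 2.63, 2.65 and 2.66.

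**Figure D3:**
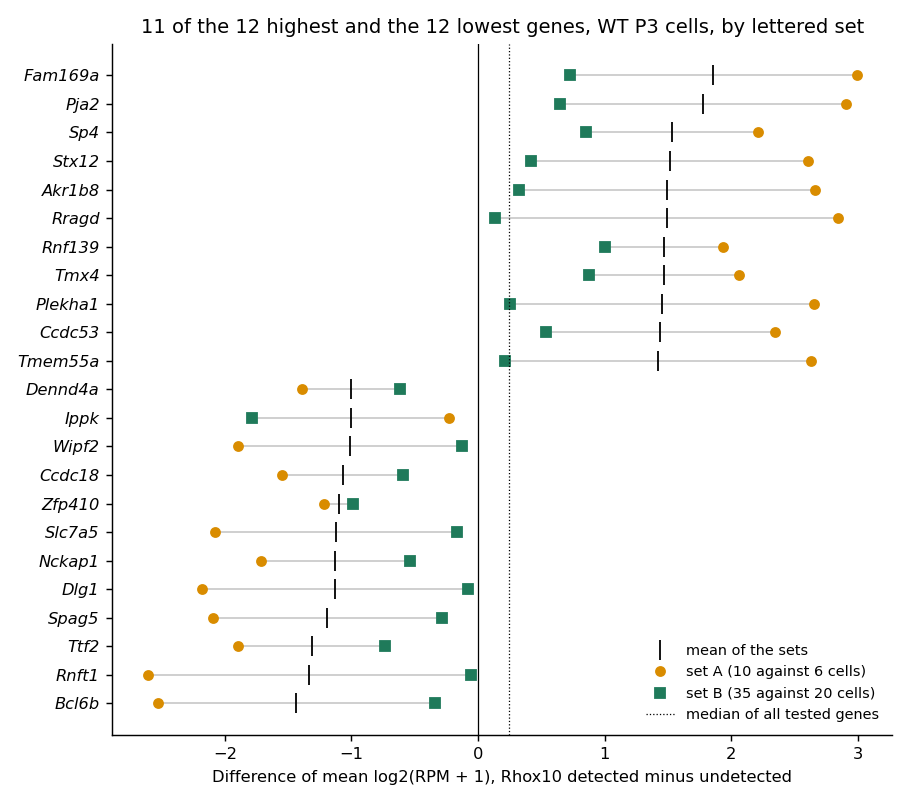
Difference of mean log2(RPM + 1), Rhox10-detected minus undetected (x axis), for 11 of the 12 highest and the 12 lowest genes (y axis) in set A (10 against 6 cells), set B (35 against 20 cells) and their mean, with the median of all examined genes, 0.24, as a dotted line. Set A lies farther from 0 than set B for each of these genes except Ippk, which was -0.23 in set A and -1.79 in set B.

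The 12 lowest genes spanned differences of -1.43 to -1.004. Bcl6b (chr11:70224128-70229798, minus strand), a transcriptional repressor that GDNF is known to induce and that stem cell spermatogonia need, was the lowest. In set A it had a median of 0.949 RPM in detected cells (0 to 24.1) and 19.2 RPM in undetected cells (3.55 to 40.5). In set B the medians were 5.89 RPM in detected cells (0.123 to 25) and 5.43 RPM in undetected cells (0.238 to 33.7). The difference thus rested on set A, where 5 of 10 detected and 6 of 6 undetected cells were above 1 RPM. The mean level was 1.90 ± 1.55 in detected and 3.33 ± 1.36 in undetected cells, and the differences were -2.53 in set A and -0.34 in set B.

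Zfp410 (chr12:84316852-84343723, plus strand), a zinc finger transcription factor, was lower by nearly the same amount in each set, -1.22 in set A and -0.99 in set B. In set A it had a median of 1.84 RPM in detected cells (0.109 to 18.015) and 12.1 RPM in undetected cells (0.452 to 23.9). In set B the medians were 7.77 RPM in detected cells (0 to 41.6) and 17.5 RPM in undetected cells (1.12 to 54.03). Detected cells were lower in both, with overlapping ranges. Ttf2, a transcription termination factor, had a median of 1.78 RPM in detected and 8.23 RPM in undetected cells and differed by -1.89 and -0.74 in sets A and B. Ippk, an inositol phosphate kinase, was the gene of the 12 whose difference stood mostly in set B.

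The other lowest genes were lower mainly in set A. They were Spag5, which encodes the mitotic spindle protein astrin (-2.10 in set A and -0.28 in set B), Slc7a5, an amino acid transporter (-2.08 and -0.17), Dlg1, a scaffold protein of cell polarity (-2.18 and -0.08), and Rnft1 (-2.61 and -0.06). Nckap1, a subunit of the actin-regulating WAVE complex, differed by -1.72 and -0.54, Dennd4a, an exchange factor for Rab GTPases, by -1.39 and -0.61, Ccdc18 by -1.55 and -0.59, and Wipf2, a WASP-interacting protein, by -1.89 and -0.13.

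Id4, the gene of the reporter used for the sort, had almost the same averaged level on both sides, with opposite differences in the sets. It ranged from 0 to 43.6 RPM with a median of 11.8 in detected cells and from 3.98 to 43.1 RPM with a median of 10.9 in undetected cells, and was above 1 RPM in 42 of 45 and 26 of 26 cells. Its mean level was 3.62 ± 1.33 in detected and 3.602 ± 0.83 in undetected cells, a difference of 0.01 (0.56 in set A and -0.53 in set B).

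T (chr17:8434423-8442496, plus strand), the T-box factor brachyury and a gene of stem cell spermatogonia, was lower in Rhox10-detected cells in both sets; its mean level under 2 kept it out of the 4728 genes above. It was above 1 RPM in 11 of 45 detected cells (24.4%; exact 95% interval 12.9 to 39.5%, counting error only) and in 14 of 26 undetected cells (53.8%; 33.4 to 73.4%). In set A its values were 0 to 6.62 RPM (median 0.314) in detected and 0 to 39.8 RPM (median 7.85) in undetected cells. There, 3 of 10 detected and 3 of 6 undetected cells were above 1 RPM. The undetected cell at 39.8 RPM had the fewest reads of all 71 cells, 251530. Without that cell the averaged T difference was -0.98. In set B they were 0 to 19.3 RPM (median 0) in detected and 0 to 53.5 RPM (median 2.31) in undetected cells. The ranges overlapped from 0 upward in each set, with the highest cell of each set on the undetected side. In set B the next highest values, 19.3 and 16.5 RPM, were in detected cells. The mean level of T was 0.78 ± 1.28 in detected and 2.06 ± 1.90 in undetected cells. The difference was -1.28 (-1.51 in set A and -1.06 in set B), -1.52 relative to the median of all examined genes.

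**Figure D4:**
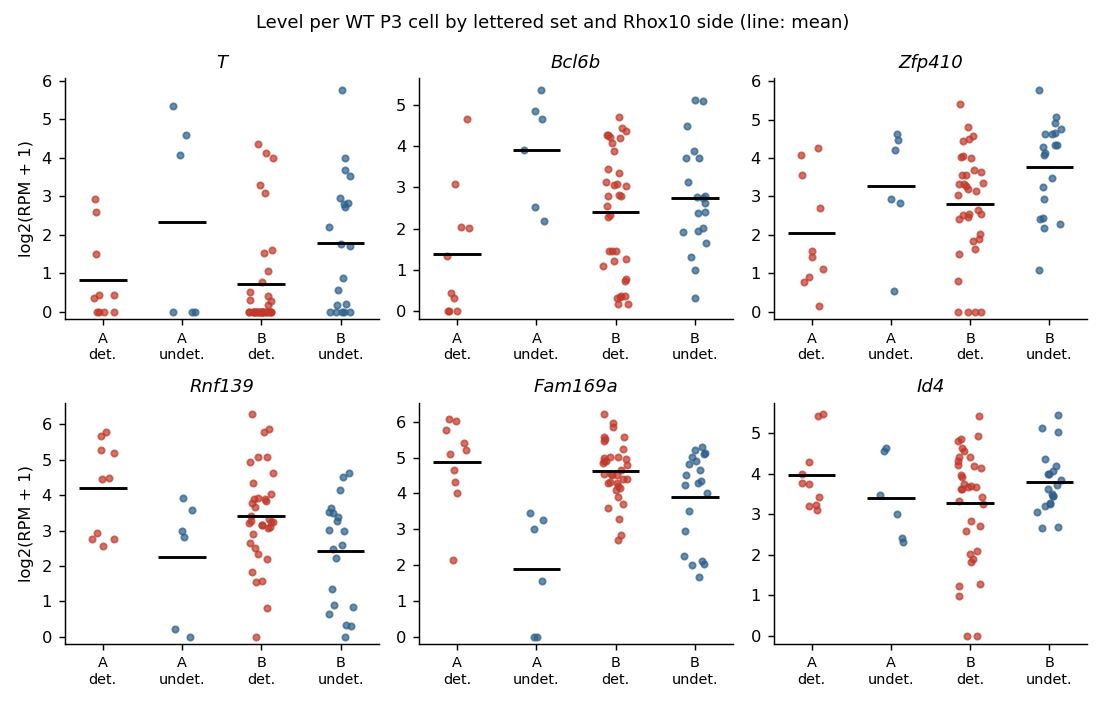
Level per WT P3 cell, log2(RPM + 1), of T, Bcl6b, Zfp410, Rnf139, Fam169a and Id4 by lettered set, with Rhox10-detected (det.) left of undetected (undet.) cells and the mean as a line. T was lower by 1.51 in set A and by 1.06 in set B in detected cells, whereas the Id4 difference was 0.56 in set A and -0.53 in set B.

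List members were counted when their mean level was at least 0.5, which 9835 genes of the table reached. Among these genes the median difference was 0.20, 42.5% were higher and 13% lower in detected cells in both sets, and 2.52% were counted as higher and 0.193% as lower by the rule of 1. Of 24 stem cell genes, 18 were measured. In detected cells 3 were higher and 7 were lower in both sets, with a median difference of -0.03, or -0.27 relative to the median of the examined genes, and 14 of the 18 stood below that median. T and Bcl6b were the 2 members lower by the rule, and none was higher by it. Lhx1, a LIM homeobox factor, differed by -0.62 (-0.37 in set A and -0.86 in set B), and Eomes, a T-box factor, by -0.53 (-0.50 and -0.55). The GDNF receptor subunit Ret differed by -0.38 and its partner Gfra1 by -0.14. Foxo1 and Etv5, transcription factors of stem cell maintenance, differed by 0.55 and 0.51, nearly all of it in set A. The list's median was 0.10 when only cells clear of the Rhox10 limit were used and -0.32 after thinning, so its sign depended on the setting. In WT P7 cells and P3 cells labelled KO the relative median of the stem cell list was -0.02 and -0.03 for the same division.

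Genes of oxidative phosphorylation, the mitochondrial respiratory chain and ATP synthase, were higher in Rhox10-detected cells in nearly every case. All 28 were measured, 27 were higher in detected cells, 25 of them (89.3%) in both sets, and none was lower in both. Their median difference was 0.44 (0.61 in set A and 0.19 in set B), 0.20 relative to the median of the examined genes, and 0.26 after rescaling to reads on genes. Against the median of the examined genes, 21 of the 28 stood above and 7 below, and none reached a difference of 1. Uqcrc2, of respiratory complex III, differed by 0.94 and Sdhd, of complex II, by 0.91. In WT P7 cells and P3 cells labelled KO the relative median was 0.01 and -0.03 for the same division. Of 16 measured glycolysis genes, 15 were higher and 11 of these in both sets, with a relative median of 0.03. Ldha, lactate dehydrogenase A, and Slc2a3, a glucose transporter, were higher by the rule, by 1.05 (1.89 and 0.22) and 1.04 (1.85 and 0.23).

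Differentiating and early meiotic genes were higher in detected cells in both sets for 10 of 17 measured members and lower in both for 0. Of all measured genes, 42.5% were higher in both. The list's median was 0.42, or 0.18 relative, and 10 of the 17 stood above and 7 below the median of the examined genes. Stra8, which retinoic acid induces, differed by 0.83 (1.22 in set A and 0.44 in set B), and Dnmt3a, a DNA methyltransferase, by 0.84 (1.23 and 0.45). Kit, the receptor of differentiating spermatogonia, differed by -0.49, with -1.21 in set A and 0.23 in set B. Of 13 measured progenitor genes, 4 were higher and 1 lower in both sets, with a relative median of 0.01. Dmrt1, a DM-domain factor of germ cells, was the 1 counted as higher, by 1.22 (2.16 and 0.28). It went the other way in WT P7 cells, by -0.57 (-0.79 and -0.34). In P3 cells labelled KO it differed by -0.60 (-1.47, -0.38 and 0.05 in sets A, B and C). Of 11 measured retinoid genes, 6 were higher and 0 lower in both sets, with a relative median of -0.02 and 5 of the 11 above the median of the examined genes. Dhrs3, a retinaldehyde reductase, was counted as higher by 1.05 (0.50 in set B). Of 18 measured prospermatogonial genes, 10 were higher and 1 lower in both sets, with a relative median of 0.12.

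Cell cycle lists did not stand together. Of 28 S phase genes, 14 were higher and 4 lower in detected cells in both sets, with a median of 0.22 and a relative median of -0.02, and 15 of the 28 stood below the median of the examined genes. Of 27 G2 and mitosis genes, 8 were higher and 5 lower, with a median of -0.12 (-0.27 in set A and 0.08 in set B) and a relative median of -0.36, and 19 of the 27 stood below the median of the examined genes. Mki67, a gene of proliferating cells, differed by -1.05, with -2.26 in set A and 0.17 in set B. Of 26 measured genes of GDNF and FGF signalling, 7 were higher and 6 lower in both sets, with a relative median of -0.17. Of 23 measured migration and adhesion genes, 6 were higher and 5 lower, with a relative median of -0.33. Vcl, vinculin, differed by 1.11 (1.78 and 0.43), while Tln1, talin, which binds it at adhesions, differed by -0.95 (-1.44 and -0.45). Under the same division, the S phase list had relative medians of -0.54 in WT P7 cells and 0.03 in P3 cells labelled KO. The G2 and mitosis list had 0.15 and 0.35.

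Of 30 other Rhox cluster genes, 28 were in the table and 2 were measured. Rhox13 differed by 0.43 (0.97 in set A and -0.11 in set B) and was above 1 RPM in 35 detected and 18 undetected cells. Rhox5 differed by 0.35 (0.96 and -0.26) and was above 1 RPM in 16 and 9 cells. Neither went with Rhox10 in both sets. Among 13 measured X-linked genes around the cluster, 7 were higher and 0 lower in both sets, with a relative median of -0.08, and Cul4b, a ubiquitin ligase scaffold, differed by 0.90 (1.54 and 0.26).

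The same division was applied to WT P7 cells and to P3 cells labelled KO, which share no cell with those above. The median difference of all examined genes was -0.10 in WT P7 cells and 0.09 in cells labelled KO, and values below are relative to it where so named. Of the 12 genes highest in WT P3, 5 lay above the median in WT P7 cells and 6 in cells labelled KO, against 50% and 51.6% of all examined genes. Their median relative difference was -0.01 in WT P7 cells and -0.05 in cells labelled KO, beside 1.25 in the WT P3 cells that picked them. Of the 12 lowest, 4 lay below the median in WT P7 cells and 5 in cells labelled KO, against 50% and 48.4% of all genes, with median relative differences of 0.50 and 0.04 beside -1.37 in WT P3.

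Zfp410 differed by -1.56 in WT P7 cells, with -2.82 in set A (6 against 6 cells) and -0.30 in set B, so that most of it stood in set A. In cells labelled KO it differed by 0.27, with 0.92, -0.01 and -0.09 in sets A, B and C. Bcl6b differed by -0.18 in WT P7 cells (0.83 in set A and -1.20 in set B) and by -0.43 in cells labelled KO (-0.12, -0.91 and -0.25 in sets A, B and C). T differed by 0.16 in WT P7 cells (0 in set A and 0.32 in set B) and by -0.36 in cells labelled KO (-0.28, 0.03 and -0.84). The mean level of T was low in these cells, so little was there to compare. It was 0.23 in detected and 0.07 in undetected WT P7 cells, and 0.19 and 0.55 in cells labelled KO. Of these 3 genes, Bcl6b was lower in every set of the cells labelled KO, as were 365 of the 4728 genes examined in WT P3. Its mean level there was 0.88 in detected and 1.31 in undetected cells. Zfp410 was lower in both sets of WT P7 cells, as were 1291 of the 4728 genes. Fam169a differed by 0.26 in WT P7 cells (0.04 and 0.48) and by 0.89 in cells labelled KO, where set A had 2.07 and sets B and C had 0.05 and 0.56. Rragd differed by 0.65 in WT P7 cells (0.99 and 0.31) and by 0.63 in cells labelled KO, where set B went the other way (1.31, -0.11 and 0.70). Id4 differed by -0.10 in WT P7 cells (0.49 and -0.69) and by 0.05 in cells labelled KO (0.12, -0.94 and 0.96), with both signs in each. Of the 144 genes counted as higher in WT P3, 120 could be examined in WT P7 cells and 2 were counted as higher there, 1.67% against 2.2% of all genes. These were Ankib1 and Hyal2, named here after their values were seen. In cells labelled KO 3 of 141 were counted as higher, 2.13% against 1.7%, namely 1110059E24Rik, Asns and Tsnax. Of the 12 counted as lower, 1 of 10 (Zfp410) was lower in WT P7 cells, against 3.29% of all genes, and 0 of 8 in cells labelled KO, against 0.572%.

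**Figure D5:**
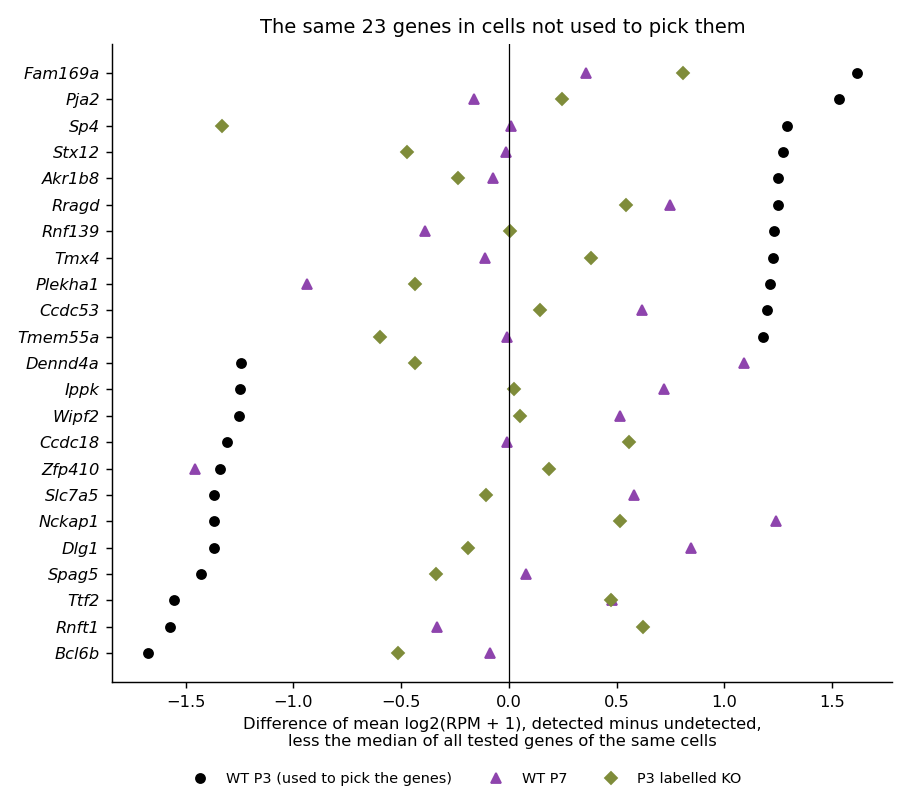
Difference of mean log2(RPM + 1), Rhox10-detected minus undetected, less the median of all examined genes of the same cells (x axis), for 11 of the 12 highest and the 12 lowest genes of WT P3 (y axis), in WT P3, WT P7 and P3 cells labelled KO. The WT P3 points stand apart because they picked the genes, and the points of the other cells lie on both sides of 0, with medians of -0.01 and -0.05 over all 12 highest and 0.50 and 0.04 for the 12 lowest.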

How the data were processed

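Per the submitters' processing notes, STAR 2.3.0, HTSeq 0.6.1 and the build mm10 were used; what each did, which annotation was used, whether strand was counted and how multiply aligned reads were handled is not stated in the sources used here. A table of values was deposited that is named TPM, but the deposited values are RPM: in each cell they were whole multiples of 1 step, the same for every gene (mean 100.0% of values whole within 0.001 RPM, lowest cell 99.9%), so whole reads were recovered. The comparisons had been planned for values in TPM. The table's rows, 19642 with 84 ERCC, summed to 8.31 to 18.8% of the total of a WT P3 cell. Levels are not per length, so they are compared within a gene. Rhox10, ERCC rows and Rn45s were kept out of the gene comparisons. No 2 WT P3 columns were identical.

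Each cell is 1 deposited sample and the labels name no animal, so no p-value was computed and a count test on recovered reads was not run. Levels are log2(RPM + 1), which understates differences of low genes. The script was tested on simulated data. Named genes are Id4, the 12 highest and 12 lowest differences with the same sign in both sets and a level of at least 2, the extremes of each of 24 lists (449 of 461 members found, older symbols through RefSeq synonyms) and measured Rhox genes; other names were added after values were seen, and 1 gene that the rule picks, though counted among the 12 highest, is not reported here. Members and lists were chosen with earlier results of these data known. Gene positions are from GENCODE M21 on GRCm38. Pluripotency, pan germ cell, stress, p53, DNA methylation and other cell type lists had relative medians of 0.04, -0.00, -0.11, -0.17 and -0.01, and, for Sertoli, Leydig, myoid, endothelial and leukocyte, -0.24, -0.59, -0.02, -0.07 and 0.27; no erythroid gene was measured. Python 3.11.15, numpy 2.4.6, pandas 2.3.3, scipy 1.17.1 and matplotlib 3.10.9 were used.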

Additional observations from a re-analysis of the deposited data

Results flagged for a closer look

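Among 62 groups of 4 to 10 cells, of which chance alone flags about 1 in 20, 3 held a cell far from the others. In set A, 1 Rhox10-detected cell had a Fam169a level of 2.13 on the log2(RPM + 1) scale, below the other detected cells of that set. Also in set A, 1 detected cell had 0.183% of its reads on Rn45s, the ribosomal RNA precursor, below the other detected cells of that set. Akr1b8 stood at 4.89 in 1 undetected cell of set A, above the other 5.

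Of 25 genes compared here with the other cells, which left out Dmrt1, 6 had the opposite direction in every set of WT P7 cells. They were Pja2 (-0.26) and Plekha1 (-1.04), which were higher in Rhox10-detected WT P3 cells, and Ttf2 (0.38), Dlg1 (0.75), Nckap1 (1.14) and Dennd4a (0.99), which were lower there. In P3 cells labelled KO the same held for Plekha1 (-0.35), Rnft1 (0.71) and Ccdc18 (0.65). Such agreement of sets was common among the 4728 genes examined in WT P3. In both sets of WT P7 cells 969 of them were higher and 1291 lower. In every set of the cells labelled KO 889 were higher and 365 lower. The difference between the groups of cells was not tested.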

How the results depend on the processing

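The counts of 144 higher and 12 lower genes followed the scale and the cells used. They were 0 and 0 with a pseudocount of 10, and 496 and 48 with 0.1. They were 70 and 22 after rescaling to reads on genes, 39 and 37 against each set's median, and 69 and 33 after thinning. With a mean level of at least 4 they were 15 and 0, with at least 1 the higher count was 237, and with no filter they were 248 and 19. Any Rhox10 read against none gave 22 lower genes. Set B alone gave 16 higher genes, set A alone 861 and 176, and cells pooled over sets 24 and 2, where sets A and B did not have to share a sign. Without cells with Clu above 1 RPM, which left 30 detected and 12 undetected cells, the counts were 403 and 120. Chosen after seeing the data, only cells clear of the Rhox10 limit gave 221 and 59, and rescaled, pooled cells 10 and 6. Leaving out each cell in turn gave 118 to 229 higher and 9 to 22 lower genes. The cause of these changes was not tested. The Id4 difference lay between -0.53 and 0.56. Leaving out single cells left T at -1.52 to -0.98, Bcl6b at -1.62 to -1.29 and the oxidative phosphorylation median at 0.30 to 0.63. The 24 named genes kept their sign in the settings run, a result nearly fixed by how they were picked. No paired analysis was possible because the title numbers only count cells within a set and no test was made. Counting error limits the division itself, since 9 detected and 13 undetected cells were within it of 1 RPM. These included deeply read cells close to the limit, such as an undetected set B cell with 10353727 reads and 0.966 RPM.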
